A study of Mus musculus with 18 samples.

Results

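A set of 10 genes of the mouse trophoblast lineage, the cells that build the placenta, were followed in stem cells kept in normoxia or in hypoxia. They were chosen by symbol: *Hand1*, *Ascl2*, *Gcm1* and *Ovol2* encode transcription factors, *Syna* a cell fusion protein, *Prl2c2* and *Prl3d1* placental hormones, and *Tpbpa*, *Plac1* and *Plac8* are genes named for expression in placenta or trophoblast. Of the 10, 9 had a row in at least 1 of the 3 expression tables, among 14804 genes in all, and *Tpbpa*, a marker of the spongiotrophoblast, had none and was not analysed here. The table of embryonic stem cells (ESCs) listed 7 of the genes, that of trophoblast stem cells (TSCs) 9, and that of extra-embryonic endoderm (XEN) cells 4.

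Total RNA of 18 libraries was profiled by bulk RNA-seq, with 2 biological replicates for each cell type and condition. ESCs of the E14 line were grown without feeders, TSCs on feeder cells with added growth factor, and XEN cells on gelatin in feeder-conditioned medium; the labels name no line for TSCs and XEN cells. Each cell type was kept in normoxia (20% O2) or moved to hypoxia (2% O2) for 2 or 7 days, and the design asks how each responds to acute and to prolonged hypoxia. The labels give the normoxic libraries no day, and there is no separate normoxic pair for day 2 and for day 7. Time in hypoxia therefore cannot be told apart from time in culture. Levels are given as TPM, read shares scaled for depth and gene length, which sum to 1000000 in each library, and rest on 35592641 to 75204029 reads per library.

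Trophoblast stem cells are held in self-renewal by FGF and by factors such as CDX2, EOMES and ELF5. When these are withdrawn, the cells differentiate along several routes. HAND1 is a basic helix-loop-helix (bHLH) factor required for trophoblast giant cells, which secrete hormones of the prolactin family. ASCL2, another bHLH factor, is required for the spongiotrophoblast, and GCM1 for the syncytiotrophoblast of the labyrinth, where maternal and fetal blood exchange gases and where the envelope-derived protein syncytin-A, the product of *Syna*, fuses cells.

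The labels were checked against defining markers. *Pou5f1* was at 1570 to 2010 TPM in ESCs, *Elf5* at 14.7 to 85.1 TPM in TSCs and *Sox17* at 1010 to 1390 TPM in XEN cells. *Cdx2* was at 35.1 to 169 TPM in TSCs and at 1.27 to 4.19 TPM in ESCs, and *Pou5f1* had no row in the table of TSCs. The hypoxia target *Pdk1*, a kinase that lowers pyruvate entry into mitochondria, rose in TSCs on day 2 by 2.47 on the log2 scale (limma, adjusted p = 0.0191) and was lower on day 7 than on day 2, at −2.44 (adjusted p = 0.00599). *Slc2a1*, a glucose transporter, and *Pgk1*, a glycolytic enzyme, were 1.01 and 1.14 higher in ESCs on day 2 without passing the test (limma adjusted p = 0.534 and 0.522). *Pdk1* was at 0.13 there (limma adjusted p = 0.987). In XEN cells none of the 3 genes passed the test. None passed in TSCs on day 7 against normoxia either. There *Pdk1* was at 0.03, *Slc2a1* at 0.09 and *Pgk1* at 0.73 (limma adjusted p = 0.958, 0.922 and 0.312). On day 2 in TSCs *Pgk1* passed, at 1.72, and *Slc2a1*, at 0.99, did not.

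The deposited values had been divided by each gene's length from start to end, with its introns. Levels of different genes were therefore compared after rescaling the recovered reads by exon length. On that scale *Hand1* (chr11:57828705-57832818, GRCm38) stood far above the other genes, at 4720 to 9770 TPM in TSCs, where it ranked 4 of 13518 genes by its mean. In ESCs it was at 1.46 to 8.67 TPM, and it had no row in XEN cells. *Plac1* (chrX:53069995-53240111), whose product is a trophoblast membrane and secreted protein, was at 30 to 508 TPM in TSCs, at 3.82 to 9.69 in XEN cells and at 0.110 to 2.51 in ESCs, with no overlap between the cell types. These levels come from tables normalized apart, so no test was made between cell types.

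*Plac8* (chr5:100553725-100572245), which encodes a small cysteine-rich protein, had the highest median of these genes in ESCs (36.7 to 55.4 TPM per exon length) and in XEN cells (8.32 to 41.9 TPM), and lay at 6.10 to 165 TPM in TSCs. Its range in TSCs took in those of the other cell types. The hormones *Prl2c2* (proliferin) and *Prl3d1* (placental lactogen I) had a row in TSCs alone, at medians of 2.87 and 2.21 TPM. *Ascl2* was higher in ESCs (8.58 to 18.7 TPM) than in TSCs (2.05 to 7.73 TPM) with no overlap, while *Gcm1*, at 1.06 to 2.85 and 0.158 to 3.78 TPM, overlapped. *Ovol2*, an epithelial zinc finger factor needed in the labyrinth, lay at 4.66 to 8.97 TPM in ESCs and 3.85 to 15.5 in TSCs, and at 0.793 to 2.48 in XEN cells. In TSCs the order of the medians was *Hand1*, *Plac1*, *Plac8*, *Ovol2*, *Syna*, *Ascl2*, *Prl2c2*, *Prl3d1* and *Gcm1*. Among neighbours in that order, only *Hand1* and *Plac1* had ranges over the 6 libraries that did not overlap.

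**Figure D1:**
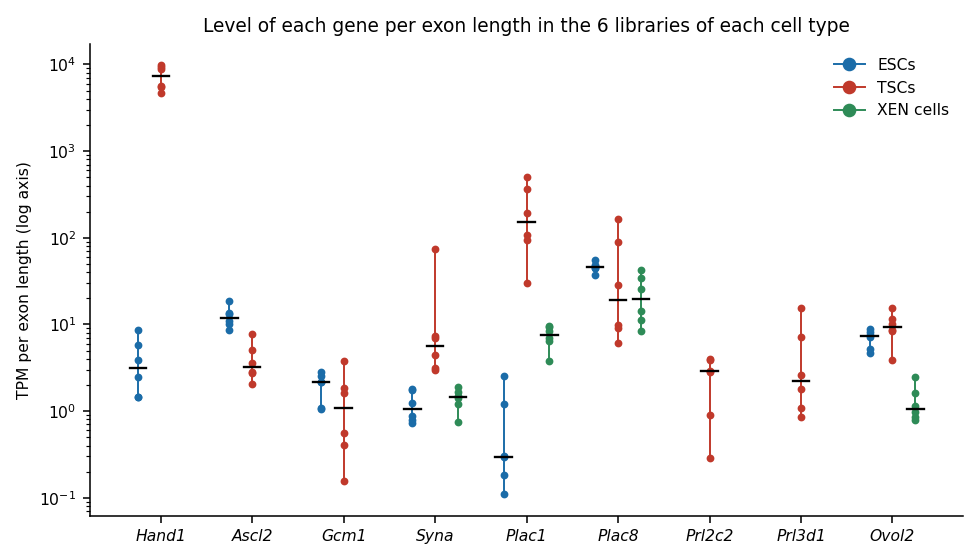
Level of each gene per exon length (TPM, log axis) by cell type. Points are the 6 libraries of a cell type, thin lines their range and black bars their median; *Hand1* in TSCs lies at 4720 to 9770 TPM, above every other gene shown.

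Within a cell type, changes were tested on log2(TPM + 0.5) with limma over all genes that passed a filter of 0.4 TPM in 2 libraries. Genes with a Benjamini-Hochberg adjusted p of at most 0.1 and a fold change over 1.5 were called differentially expressed (DE). Fold changes on this scale understate those of low genes. The filter let 6 of the ESC genes, 9 of the TSC genes and 3 of the XEN genes be tested. *Plac1* did not pass the filter in ESCs and XEN cells, its span being 122 times its exon length. In bulk RNA, fewer cells that express a gene and less RNA per cell cannot be told apart.

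In TSCs most calls lay between the 2 times in hypoxia. On day 7, *Plac8*, *Plac1* and *Prl3d1* were higher than on day 2, by 2.67, 2.46 and 2.15 on the log2 scale, and *Ascl2* and *Gcm1* were lower, at −1.16 and −1.38. That makes 5 of the 9 genes tested DE, against 16.2% of all genes tested. Of all DE genes 14.7% were higher on day 7, a share that was 42.4% after scaling to the median ratio. By direction, 3 of the 9 were higher against 2.37% of all genes and 2 were lower against 13.8%. The libraries of the 2 days did not overlap for 6 of the 9, close to the 59.3% of all genes. Against normoxia, 1 of the 9 was DE on day 7 (*Plac8*, against 0.385% of all genes) and 0 on day 2 (0.2% of all genes), where *Ascl2* alone had an unadjusted p below 0.05 and voom on recovered reads also called 0. Libraries were apart for 3 of the 9 on day 2 (47.4% of all genes) and for 3 on day 7 (41.3%). Replicates were less alike in TSCs than in ESCs, with 17.5 to 19.9% of genes over 1.5-fold apart between the 2 libraries of a condition, against 3.88 to 13.4%.

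**Figure D2:**
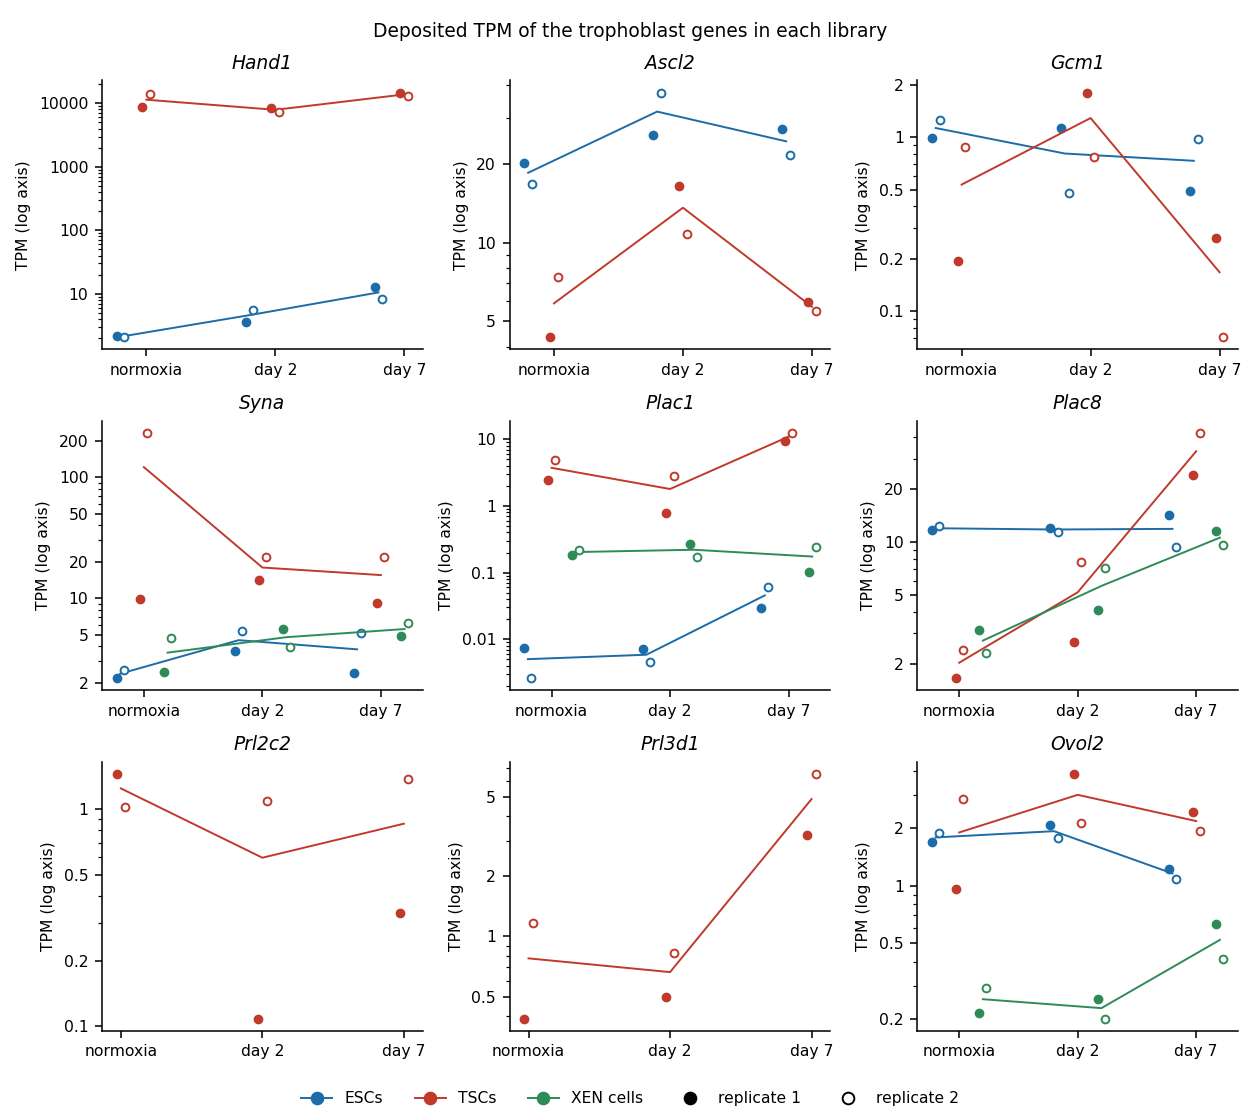
Deposited TPM (log axes, which differ between panels) of the 9 genes in each library, by condition. Filled and open points are replicates 1 and 2, lines join the means of 2 libraries, and colours mark the cell types; in TSCs *Plac8* runs from 1.67 and 2.41 TPM in normoxia to 24.1 and 42.0 on day 7.

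Among the regulators, *Hand1* did not move with the others. Over the 6 TSC libraries its Pearson r was −0.46 with *Ascl2*, −0.38 with *Gcm1* and 0.19 with *Ovol2*. Between *Ascl2* and *Gcm1* r was 0.92, between *Ascl2* and *Ovol2* 0.79 and between *Gcm1* and *Ovol2* 0.75. *Hand1* was at 8650 and 14200 TPM in normoxia, 8570 and 7230 at day 2 and then 14800 and 12900 at day 7. The day 2 libraries were the lowest, and the normoxic pair spanned most of the range. *Hand1* was 0.81 higher on day 7 than on day 2 (SE 0.30, adjusted p = 0.137), which did not pass the test, and its 95% interval reached from 0.10 to 1.52.

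*Ascl2* (chr7:142966829-142969264) was at 4.35 and 7.38 TPM in normoxia, 16.4 and 10.8 at day 2 and then 5.91 and 5.46 at day 7. Both day 2 libraries lay above all others. The difference of day 2 from normoxia, 1.16 (SE 0.33, limma adjusted p = 0.245), did not pass the test, while the fall from day 2 to day 7 was −1.16 (SE 0.33, adjusted p = 0.0775) and did. Day 7 and normoxia differed by 0 (95% interval −0.77 to 0.77).

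*Gcm1* (chr9:78051924-78065624) was at 0.193 and 0.874 TPM in normoxia, 1.81 and 0.772 at day 2 and then 0.263 and 0.0706 at day 7. The day 7 libraries held 14 and 4 reads against 99 and 42 on day 2, and the normoxic pair, with 9 and 44 reads, overlapped both. The fall from day 2 to day 7 was −1.38 (SE 0.44, adjusted p = 0.0977). Both falls passed narrowly. The median difference of all genes between these days was −0.24, and after scaling to the median ratio the values were −0.89 for *Ascl2* (adjusted p = 0.152) and −1.27 for *Gcm1* (adjusted p = 0.131), neither DE. With voom both also lost their calls (*Ascl2* −1.08, adjusted p = 0.195; *Gcm1* −2.87, adjusted p = 0.119). *Ascl2* lost it with exon lengths (adjusted p = 0.119), and *Gcm1* with no filter (adjusted p = 0.104) and with a pseudocount of 1 (adjusted p = 0.105).

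*Ovol2* (chr2:144305175-144332146) was at 0.960 and 2.85 TPM in normoxia, 3.85 and 2.13 at day 2 and then 2.43 and 1.94 at day 7. Its conditions overlapped throughout, and the interval of the difference between day 2 and day 7 was −1.40 to 0.72. It overlaps an antisense gene, 1700108N11Rik, by 688 bases. Its lowest library was the first normoxic replicate, as for *Ascl2*; in *Gcm1* that library was the lowest but for day 7 replicate 2.

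The upstream regions of *Ascl2* and *Gcm1* are shown because both genes fell between the same days and because bHLH factors and hypoxia-inducible factors have short known motifs. RefSeq entries on GRCm38.p6 were present for 8 of the 10 genes. Each line holds the 250 bases before the RefSeq start, 5′ to 3′ in the direction of transcription, on the minus strand at chr7:142969265-142969514 for *Ascl2* and on the plus strand at chr9:78051708-78051957 for *Gcm1*. Capitals mark the hypoxia response core, ACGTG or GCGTG, and the E-box CANNTG bound by bHLH factors, each searched on both strands.
Ascl2: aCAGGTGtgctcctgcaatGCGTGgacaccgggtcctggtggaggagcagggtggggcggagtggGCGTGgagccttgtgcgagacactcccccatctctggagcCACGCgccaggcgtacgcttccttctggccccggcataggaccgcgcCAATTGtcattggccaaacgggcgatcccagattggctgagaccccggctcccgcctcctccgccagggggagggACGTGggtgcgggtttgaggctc
Gcm1: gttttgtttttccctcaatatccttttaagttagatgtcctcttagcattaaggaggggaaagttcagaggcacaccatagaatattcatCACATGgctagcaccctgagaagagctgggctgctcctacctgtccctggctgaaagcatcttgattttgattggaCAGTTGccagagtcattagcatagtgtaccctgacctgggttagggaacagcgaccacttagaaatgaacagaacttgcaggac
The *Ascl2* window held 1 match to ACGTG, 3 to GCGTG and 2 E-boxes, and the *Gcm1* window 2 E-boxes and no hypoxia core. Of the other genes with an entry, *Plac8* had 1 ACGTG in its window at chr5:100563097-100563346. No other window of these genes held a hypoxia core. Among 32851 such windows, 16.6% held at least 1 ACGTG, 28.2% at least 1 GCGTG and 66.2% at least 1 E-box. These shares do not show how often a window holds several matches or both hypoxia cores. A match is a string of letters and was not tested as a bound site.

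The placental hormones differed between them. *Prl3d1* (chr13:27094190-27100258) was at 0.388 and 1.17 TPM in normoxia, 0.496 and 0.830 at day 2 and then 3.22 and 6.53 at day 7, from 8, 26, 12, 20, 76 and 164 reads. Both day 7 libraries stood above the other 4. The rise from day 2 was 2.15 (SE 0.43, adjusted p = 0.0351), and the difference from normoxia, 2.07 (SE 0.43, adjusted p = 0.175), did not pass. *Prl2c2* (chr13:12996125-13005383) was at 1.46 and 1.03 TPM in normoxia, 0.108 and 1.09 at day 2 and then 0.333 and 1.38 at day 7. Its libraries overlapped in every comparison, and the second replicate was the higher on both days of hypoxia.

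Both genes have near copies with which reads may be shared. *Prl3d1* transcripts matched those of *Prl3d2* and *Prl3d3* at 98.4% and 98.5% of aligned positions, and *Prl2c2* those of *Prl2c3* at 99.5%. Values of the single copies are therefore uncertain. *Prl3d2* was at 0.703 and 0.744 TPM in normoxia, 0 and 0.430 at day 2 and then 2.2 and 2.48 at day 7, and rose from day 2 to day 7 by 2.05 (adjusted p = 0.0242). *Prl3d3* held 0 to 4 reads in the other libraries and 36 and 22 on day 7. It passed the filter only through day 7, so its fitted difference of 1.67 between the days is a description. The copies of the placental lactogen I cluster, all on chromosome 13, are not separate measurements where reads were shared. The fitted values of *Prl3d2* and *Prl3d3* depend on the pseudocount, since day 2 held 0 to 10 reads.

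Their upstream regions are shown because *Prl3d1* and *Prl3d2* were both higher on day 7 than on day 2 and the copies are near identical. The windows, on the plus strand, lie at chr13:27093939-27094188 (*Prl3d1*), chr13:27121445-27121694 (*Prl3d2*) and chr13:27156544-27156793 (*Prl3d3*), with E-boxes in capitals.
Prl3d1: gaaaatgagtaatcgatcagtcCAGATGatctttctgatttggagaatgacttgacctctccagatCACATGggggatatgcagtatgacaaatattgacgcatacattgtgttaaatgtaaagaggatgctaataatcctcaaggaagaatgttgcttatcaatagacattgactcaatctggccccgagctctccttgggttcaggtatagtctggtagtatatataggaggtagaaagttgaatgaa
Prl3d2: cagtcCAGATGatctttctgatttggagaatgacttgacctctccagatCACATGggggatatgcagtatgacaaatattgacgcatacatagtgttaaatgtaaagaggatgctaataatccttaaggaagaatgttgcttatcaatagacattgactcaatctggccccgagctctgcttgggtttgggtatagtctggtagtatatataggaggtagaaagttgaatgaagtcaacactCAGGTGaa
Prl3d3: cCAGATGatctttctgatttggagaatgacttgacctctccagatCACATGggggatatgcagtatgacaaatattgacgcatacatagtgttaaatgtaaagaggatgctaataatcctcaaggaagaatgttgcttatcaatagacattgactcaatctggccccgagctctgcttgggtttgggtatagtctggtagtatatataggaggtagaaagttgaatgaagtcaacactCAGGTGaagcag
Aligned to *Prl3d1*, the *Prl3d2* window was identical at 228 of 233 aligned positions (97.9%) and that of *Prl3d3* at 225 of 229 (98.3%). The windows held 2, 3 and 3 E-boxes and no hypoxia core. The last E-box of *Prl3d2* and *Prl3d3* lies past the bases where the *Prl3d1* window ends. These counts therefore do not show that *Prl3d1* lacks it.

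*Plac8* had the largest fitted change of the 9 genes in both comparisons of day 7. It was at 1.67 and 2.41 TPM in normoxia, 2.68 and 7.64 at day 2 and then 24.1 and 42.0 at day 7, and both day 7 libraries lay above the other 4. The rise on day 7 was 3.69 against normoxia, or 12.9-fold (SE 0.49, adjusted p = 0.0733), and 2.67 against day 2, or 6.36-fold (SE 0.49, adjusted p = 0.0295). Reads numbered 105 and 164 in normoxia and 1737 and 3221 on day 7. The change against normoxia lost its call with no filter on low values (adjusted p = 0.141) and with voom on recovered reads (4.12, adjusted p = 0.116).

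*Plac1* was at 2.48 and 4.95 TPM in normoxia, 0.782 and 2.79 at day 2 and then 9.43 and 12.3 at day 7. The lowest library was day 2 replicate 1, and the highest were those of day 7. The rise from day 2 to day 7 was 2.46, or 5.49-fold (SE 0.50, adjusted p = 0.0359). Against normoxia the value was 1.48 (SE 0.50, adjusted p = 0.372), with no overlap but short of the threshold.

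*Syna* (chr5:134558146-134560171) was dominated by 1 library. It was at 9.88 and 231 TPM in normoxia, 14 and 21.9 at day 2 and then 9.14 and 21.8 at day 7, so that normoxic replicate 2 held 1720 reads and the other 5 libraries 68 to 183. The change on day 7 against normoxia was −1.74 with an interval from −4.72 to 1.24. It was 0.50 without that library and −3.98 without the other normoxic one, so no direction can be read. Without the lower normoxic library *Syna* was DE against normoxia on both days. The gene overlaps an antisense gene, Gm42884, by 350 bases.

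**Figure D3:**
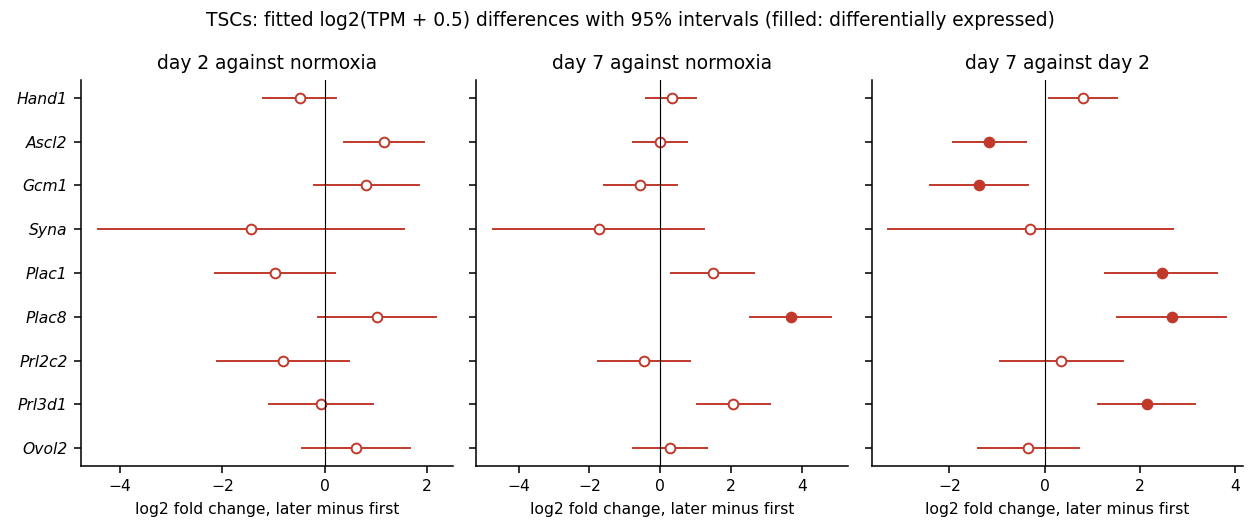
Fitted differences in log2(TPM + 0.5) for the 9 genes in TSCs, with 95% intervals, for the 3 comparisons. Filled points are DE; on day 7 against day 2, *Plac8*, *Plac1* and *Prl3d1* lie at 2.15 to 2.67 and *Ascl2* and *Gcm1* at −1.16 and −1.38.

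The calls between day 2 and day 7 depended on single libraries. With day 2 replicate 1 or either day 7 library left out, 0 of the 9 genes were DE, with 30, 284 and 0 DE genes among all genes tested; without day 2 replicate 2 the same 5 were. Values in these fits ran from 1.99 to 3.35 for *Plac8*, 1.78 to 3.14 for *Plac1*, 1.69 to 2.61 for *Prl3d1*, −1.45 to −0.86 for *Ascl2* and −1.81 to −0.95 for *Gcm1*. Their directions could not reverse, because the libraries of the 2 days did not overlap for these 5 genes. The call of *Plac8* against normoxia was lost without day 7 replicate 1 (4.08, adjusted p = 0.355) or replicate 2 (3.29, adjusted p = 0.844). With 2 libraries per condition, an exact permutation test cannot give a p below 0.333.

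TSCs were grown on feeders, and markers of fibroblasts were measured in them. All 14 in the list had a row and none was at 0 in any library. Their summed level was 3770 and 518 TPM in normoxia, 570 and 2120 at day 2 and then 865 and 473 at day 7, with *Acta2* at 98.9 to 1520 and *Col1a1* at 81.6 to 856 TPM. One replicate of normoxia and 1 of day 2 were high, and the other 4 libraries were lower. With its log2 as a covariate, an alternative added after the data were seen, the same 5 genes were DE on day 7 against day 2, at 2.71 for *Plac8*, 2.44 for *Plac1*, 1.99 for *Prl3d1*, −1.34 for *Ascl2* and −1.63 for *Gcm1*. On day 7 against normoxia *Plac8* was at 3.75 and *Prl3d1* and *Syna* were DE as well. In the normoxic replicates, which differ in these markers, *Syna* was at 9.88 and 231 TPM. Its call cannot be told apart from that split. The fit with the covariate called more of all genes, 3344 against 2019 on day 7 against day 2 and 314 against 48 against normoxia. Leaving out the 2 libraries richest in these markers, also added after the data were seen, leaves 1 library each for normoxia and day 2. It gave 3.35 for *Plac8*, 3.14 for *Plac1* and 2.36 for *Prl3d1*, and −1.45 and −1.81 for *Ascl2* and *Gcm1*. Its spread comes from the 2 day 7 libraries alone, so its p-values are not given.

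**Figure D4:**
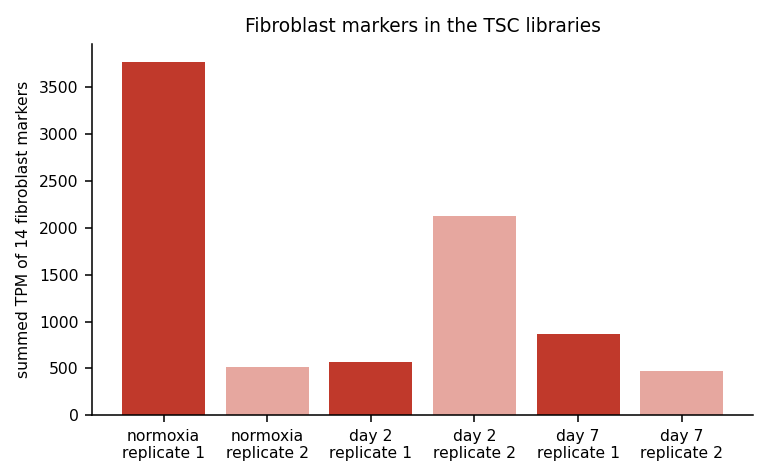
Summed TPM of 14 fibroblast markers (bars from 0) in the 6 TSC libraries, dark for replicate 1 and pale for replicate 2. Normoxia replicate 1 (3770 TPM) and day 2 replicate 2 (2120 TPM) exceed the other 4, at 473 to 865 TPM.

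The other trophoblast genes were taken from lists of their groups. Of 18 stem cell regulators, all tested, 13 were lower on day 7 than on day 2 (13.8% of all genes) and 0 higher (2.37% of all genes). Their median was −1.42 against −0.24 for all genes. The largest falls were those of *Nr0b1* (20 and 32.6 TPM on day 2, 0.984 and 1.5 on day 7, −3.92), *Sox2* (−2.85) and *Lin28a* (−2.85). *Elf5*, which sustains stem cell self-renewal, was at 60.4 and 56.6 TPM in normoxia, 82.5 and 85.1 at day 2 and then 18.8 and 14.7 at day 7. It was DE against day 2, at −2.30 (adjusted p = 0.00685), and against normoxia, at −1.78 (adjusted p = 0.0435). *Cdx2* and *Eomes* were also lower than on day 2, at −1.68 and −1.55. Against normoxia, where 0.385% of all genes were DE, 5 regulators were lower on day 7: *Elf5*, *Esrrb*, *Sox2*, *Nr0b1* and *Lin28a*. After scaling to the median ratio 11 of the 18 were DE. Without day 7 replicate 2 the 13 became 0, and without day 2 replicate 1 or day 7 replicate 1 they became 5.

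Of the 24 other genes of the placental prolactin family, 6 had a row. Between day 2 and day 7, 2 were higher (*Prl3d2* and *Prl3d3*, above) and 0 lower, with a median of 1.62. Without *Prl3d3*, which the filter let in only through day 7, 1 of 5 was higher and the median was 1.59. Of all genes 2.37% were higher, and the median of all genes was −0.24. The proliferin copy *Prl2c3* was at 13.6 and 7.85 TPM in normoxia, 0.894 and 5.24 at day 2 and then 8.11 and 8.69 at day 7 (1.65, adjusted p = 0.141). Both higher calls were lost without day 2 replicate 1 or either day 7 library. Of 8 placental cathepsins, proteases made by trophoblast, *Ctsj* and *Ctsr* had a row. *Ctsj* was at 2.14 and 16.4 TPM in normoxia, 2.08 and 11.2 at day 2 and then 1.07 and 15.3 at day 7, the second replicate the higher each time, as for *Prl2c2* on days 2 and 7.

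Of 16 labyrinth and syncytiotrophoblast genes, 13 were tested. On day 7, 5 were lower than on day 2 (13.8% of all genes) and 1 higher (2.37% of all genes). Their median was −0.77 against −0.24 for all genes. *Gjb2*, a gap junction protein, was lower on day 7 than on day 2, at −1.77 (adjusted p = 0.0146), and than in normoxia, at −2.35 (adjusted p = 0.0185), going from 98.1 and 130 TPM in normoxia to 22.2 and 21.4. *Tfeb* and *Epcam* were lower than on day 2, at −1.15 and −1.04. The WNT receptor *Fzd5* rose by 1.52 (adjusted p = 0.0348), from 48.7 and 64.6 TPM on day 2 to 214 and 122 on day 7. In normoxia it was at 133 and 108 TPM, above day 2 and overlapping day 7. *Dlx3*, a homeobox factor, was at 15.7 and 73.7 TPM in normoxia, a split in the same direction as that of *Syna*, and did not pass the test. After scaling to the median ratio 2 of the 6 calls were left, and without day 2 replicate 1 or day 7 replicate 2 none was.

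HAND1 and ASCL2 bind DNA with E proteins, and ID proteins sequester these partners. Of 8 such partners and inhibitors, 2 were lower on day 7 than on day 2 and 0 higher, where 13.8% of all genes were lower, and the count is too small to set these genes apart. *Id2* was at 673 and 682 TPM in normoxia, 1780 and 730 at day 2 and then 219 and 229 at day 7, and was lower than on day 2, at −2.35 (adjusted p = 0.0229). *Id1* was lower at −0.98 (adjusted p = 0.0838). The count was 1 after scaling to the median ratio and with voom, and 0 without either day 7 library. Of 20 genes of the spongiotrophoblast and glycogen trophoblast, 8 were tested (median 0.21), and 0 were DE between these days by limma and by voom, as were 0 of the cathepsins, with 0 at an unadjusted p below 0.05 in either list.

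**Figure D5:**
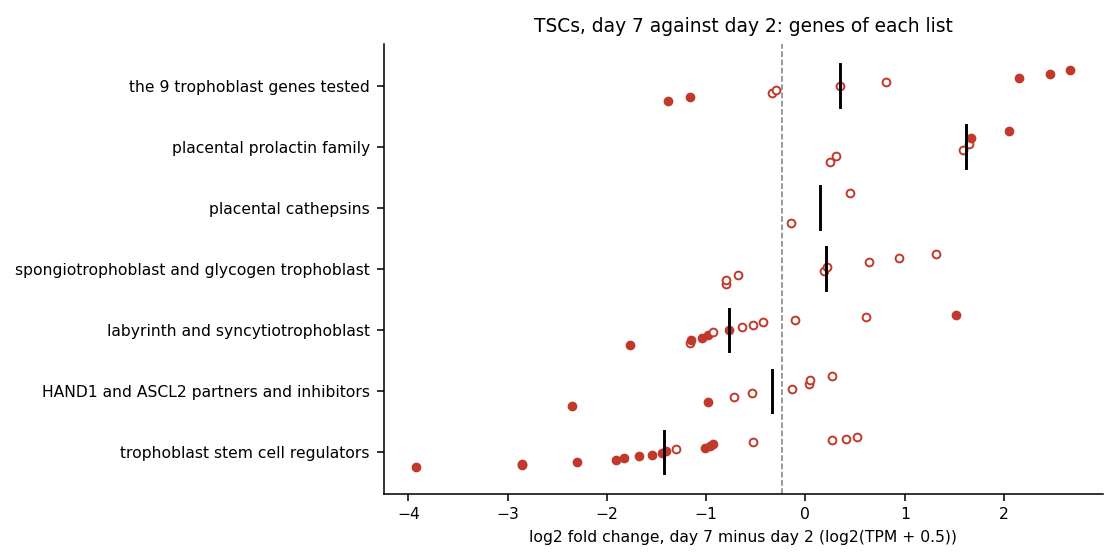
Fitted log2 fold changes in TSCs on day 7 against day 2 for the genes tested of each list; filled points are DE, black bars the median of a list and the dashed line the median of all genes (−0.24). Most stem cell regulators lie to the left, at a median of −1.42, and the prolactin family at 1.62, which includes *Prl3d3*, tested only through its day 7 libraries.

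The genes whose profiles over the 6 TSC libraries lay nearest to each of the 9 were found by the root mean square distance of centred log2 values. For *Prl3d1* these were the keratins *Krt17* (distance 0.19, Pearson r = 0.99) and *Krt16* (0.23, r = 0.98) and *Rph3a* (0.32). *Krt17* was also among the nearest to *Plac8*, at 0.68, after *Ldoc1* (0.60) and *Esam* (0.62). *Plac1* lay nearest to *Shroom1* (0.25), *Lcn2* (0.26) and *Tgm2* (0.27). *Hand1* lay nearest to *Cyb5r3* (0.08), *Ascl2* to *Bnipl* (0.09), *Gcm1* to *Slc25a23* (0.11), *Ovol2* to *Prkcz* (0.11) and *Prl2c2* to *Ifi27* (0.13). Many genes lay within 0.5 of *Hand1* (4601), *Ascl2* (3278), *Ovol2* (4002), *Gcm1* (2252) and *Prl2c2* (458), so their nearest genes are not particular to them. Fewer lay that close to *Plac1* (25) and *Prl3d1* (15). Neither *Plac8* nor *Syna* had a gene within 0.5. The nearest to *Syna* was *Isg15* at 0.67, with 158 TPM in normoxic replicate 2 and 17.1 to 64.6 elsewhere. Among the 9 genes, *Prl3d1* and *Plac8* (r = 0.93), *Ascl2* and *Gcm1* (r = 0.92) and *Prl3d1* and *Plac1* (r = 0.90) were most alike. These values describe 6 libraries in 3 conditions, share depth and scaling, and were picked as the closest of 12481 genes.

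In ESCs 1 of the 6 genes tested changed. *Hand1* was at 2.16 and 2.07 TPM in normoxia, 3.57 and 5.64 at day 2 and then 12.7 and 8.32 at day 7, from 28 and 38 reads to 248 and 118. The 3 pairs did not overlap and stood in the order of time in hypoxia. The rise on day 7 was 2.04, or 4.12-fold (SE 0.26, adjusted p = 0.0222), against 0.758% of all genes DE in that comparison. On day 2 it was 0.94 (SE 0.26, adjusted p = 0.686) and from day 2 to day 7 1.11 (SE 0.26, adjusted p = 0.452), and neither passed. Without normoxic replicate 1 or 2 or day 7 replicate 1, the difference on day 7 was 2.07, 2.02 and 1.75, and was not DE (adjusted p = 0.234, 0.305 and 0.218). Even on day 7 the level per exon length was 8.67 and 5.76 TPM, against 4720 or more in TSCs.

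*Hand1* is also a gene of the embryonic mesoderm. In the same libraries, 2 of the 8 fibroblast and mesenchymal markers tested were higher on day 7 than in normoxia, where 0.758% of all genes were DE. They were *Col1a1*, by 2.30 (limma adjusted p = 0.0544), and *Acta2*, by 1.68 (limma adjusted p = 0.079). The summed level of the 9 of 14 markers with a row was 49.9 and 53.3 TPM in normoxia, 46.8 and 51.1 at day 2 and then 74.8 and 67.6 at day 7. Their sum per exon length was 52.5 and 48.4 TPM, 46.7 and 49.7, and 99.9 and 90.3 in the same order. Their part in the rise of *Hand1* was not tested. The trophoblast stem cell factor *Cdx2*, at 1.27 and 2.08 TPM in normoxia and 4.19 and 3.77 on day 7, was 1.06 higher without passing the test (adjusted p = 0.153). Of 13 labyrinth genes 1 was DE, *Igf2*, a fetal growth factor, by 1.57 (adjusted p = 0.0926).

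*Ascl2* in ESCs was at 20.2 and 16.8 TPM in normoxia, 25.8 and 37.5 at day 2 and then 27.1 and 21.7 at day 7. Both hypoxic pairs lay above the normoxic one, by 0.74 on day 2 (adjusted p = 0.686) and 0.39 on day 7 (adjusted p = 0.741), without passing the test. *Ovol2* was at 1.69 and 1.88 TPM in normoxia, 2.07 and 1.78 at day 2 and then 1.23 and 1.09 at day 7, and the day 7 pair was the lowest (−0.46 against normoxia, adjusted p = 0.576). *Plac8* was at 9.39 to 14.3 TPM with overlap in every comparison, and the interval of its day 7 difference was −0.52 to 0.43. *Gcm1* (0.480 to 1.26 TPM) and *Syna* (2.19 to 5.35 TPM) rested on 14 to 77 reads per library.

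On day 2, 0 of the 6 genes were DE in ESCs by limma and by voom, as were 0% of all genes, while 3 had an unadjusted p below 0.05 (*Hand1*, *Ascl2* and *Syna*). Between day 7 and day 2, 0 were DE by both tools against 0.179% of all genes, and 2 had an unadjusted p below 0.05 (*Hand1* and *Ovol2*). Libraries did not overlap for 3 of the 6 on day 2 (30.8% of all genes), for 4 on day 7 (40.5%) and for 2 between the days (24%).

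*Plac1* in ESCs had 4 and 2 reads in normoxia, 6 and 4 at day 2 and then 24 and 36 at day 7. Both day 7 libraries were higher than the other 4. It was not tested on the deposited values, where it lay at 0.00264 to 0.0614 TPM. With exon lengths it was at 0.301 and 0.110 TPM in normoxia and 1.2 and 2.51 on day 7, a fitted difference of 1.70. On that scale it passed the filter only through its day 7 libraries, so it had to be higher there, and its call (adjusted p = 0.053) is a description. With no filter on the deposited values the difference was 0.11 (adjusted p = 0.761).

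In XEN cells the genes other than *Plac8* were low, with *Plac1* at a median of 7.63 TPM per exon length. *Plac8* was at 3.14 and 2.32 TPM in normoxia, 4.11 and 7.11 at day 2 and then 11.6 and 9.57 at day 7. The 3 pairs did not overlap and stood in the order of time in hypoxia. Its difference on day 7 was 1.79, or 3.45-fold (SE 0.29), and did not pass the test over all genes (adjusted p = 0.146), nor did that on day 2 (0.89, adjusted p = 0.558). The background was 0.11% of genes DE on day 7, 0% on day 2 and 0.0367% between the days. By limma and by voom 0 of the 3 genes tested were DE in each of the comparisons, with *Plac8* alone below an unadjusted p of 0.05 each time.

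*Syna* in XEN cells was at 2.43 and 4.65 TPM in normoxia, 5.56 and 3.95 at day 2 and then 4.84 and 6.25 at day 7, from 16 to 59 reads. *Ovol2* was at 0.217 and 0.293 TPM, 0.255 and 0.202, and 0.629 and 0.412 in the same order, and passed the filter only through its day 7 libraries, so its higher value there had to differ and is a description. On day 7 the libraries of all 3 genes tested did not overlap those of normoxia, as for 41.3% of all genes. The shares were 1 of 3 on day 2 (41% of all genes) and 2 of 3 between the days (47.7%). *Plac1*, at 0.101 to 0.266 TPM and 65 to 237 reads, was not tested on the deposited values and differed by −0.32 on day 7 with exon lengths (adjusted p = 0.855).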

How the data were processed

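Total RNA of 18 libraries was sequenced in 75-bp paired-end format. Per the study's methods and processing notes, the authors trimmed reads with cutadapt (2.4), aligned them to mm10 with STAR (2.7.5a), assembled with StringTie (2.0.6), counted with featureCounts on GENCODE, removed genes that did not exceed 0.4 CPM in 2 of 6 libraries or code for no protein, and deposited TPM in a table per cell type. The columns labelled day 0 were taken as normoxia, and 0 columns were left unmapped. TPM times gene span fell on whole multiples of 1 read (tolerance 0.05) for 98.66 to 98.87% of values, which gave reads per gene and library. Of low read counts 58.5 to 66.4% were even, so mates appear to be counted singly and no counting intervals are given. Exon lengths came from GENCODE vM21 (GRCm38), a later release than the authors'.

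Genes above 0.4 TPM in at least 2 of 6 libraries were tested as log2(TPM + 0.5) with limma 3.58.1 (R 4.3.3, trend) on the 6 libraries of a cell type, with adjustment over all genes tested (12271 in ESCs, 12481 in TSCs, 10894 in XEN cells). The study tested read counts; that test was not run here, as the deposited unit is TPM. The thresholds for DE follow the study's. On simulated data the script was checked with known changes. Replicates are separate biological samples per the methods. Alternatives were 9 other settings, leaving out each library in turn, and 2 fits added after the data were seen.

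All genes followed are named. From each list at most 3 DE genes per direction and comparison were to be named, besides the nearest profiles and markers of cell type and hypoxia; *Ctsj*, *Dlx3*, *Prl2c3*, *Id1* and other list genes beyond these were chosen after their values were seen. The genes and the lists were chosen with earlier results of these data known. Motifs and identities were computed with Python 3.11.15 and Biopython 1.88, and figures drawn with matplotlib 3.10.9.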

Additional observations from a re-analysis of the deposited data

Results flagged for a closer look

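A pair of genes differed in opposite directions in 2 cell types under the same contrast, with libraries that did not overlap in either. The difference between cell types was not tested, because their tables were normalized separately. *Hand1* was higher on day 2 than in normoxia in ESCs (0.94 on the log2 scale) and lower in TSCs (−0.49). *Ovol2* was lower on day 7 in ESCs, at −0.46 against normoxia and −0.55 against day 2, and higher in XEN cells, at 0.43 and 0.48, where it passed the filter only through its day 7 libraries. None of these values passed the test within its cell type. With 2 libraries per condition, no single library could be tested as standing apart.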

How the results depend on the processing

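Of the genes followed, the number that were DE changed by over 1.5 times from that of the main test as follows. In ESCs on day 7 against normoxia (1 gene), it was 2 with exon lengths, the second being *Plac1*, which then passed the filter only through its day 7 libraries and so had to be higher there. In TSCs on day 7 against normoxia (1 gene), it was 0 with no filter and with voom on recovered reads, and 3 with the fibroblast covariate. On day 2 against normoxia (0), the covariate gave 1. Counts from the fit without the 2 libraries rich in fibroblast markers are not given. They rest on 1 library each of normoxia and day 2 and on the spread of the day 7 pair, and support no call. On day 7 against day 2 (5), it was 3 after scaling to the median ratio, which lost *Ascl2* and *Gcm1*, and 4 to 6 under the other settings but the replicate block, not always of the same genes. Voom called 4, with *Hand1* in and *Ascl2* and *Gcm1* out. The 4 with exon lengths left out *Ascl2*, and the 4 with no filter, a filter at 1 TPM or a pseudocount of 1 left out *Gcm1*. *Plac1*, *Plac8* and *Prl3d1* were DE under every setting that kept all libraries of the 2 days. Leaving out 1 library in turn gave 0 to 2, 0 to 1 and 0 to 1 genes in ESCs (day 2 and day 7 against normoxia, day 7 against day 2), and 0 to 1, 0 to 2 and 0 to 6 in TSCs in the same order. In ESCs *Hand1* and *Ascl2* were DE on day 2 without day 2 replicate 1, and *Hand1* between the days without day 2 replicate 2. A lone library was then assumed to vary like the other conditions. In XEN cells the count was 0 throughout. Among all genes, counts that moved as much were, in ESCs, 0 to 5 with exon lengths (day 2), 93 to 18 with the block and 320 in a fit to the 4 libraries compared (day 7), and 22 to between 6 and 14 with no filter, a filter at 1 TPM, median-ratio scaling, the block and that fit (day 7 against day 2). In TSCs 25 on day 2 became 11 with no filter, 15 with median-ratio scaling and 3 with the block. It was 0 in the 4-library fit and 619 with the covariate. The 48 on day 7 became 13 with no filter and with the block, 79 with exon lengths and 25 with voom. With the covariate, that 48 became 314 and the 2019 between the days became 3344. In XEN cells 12 on day 7 became 43 with the block, 6 with voom and 1 in the 4-library fit, and 4 between the days became 2 with no filter and with voom and 37 in that fit. Where no value above shows the cause, it was not tested.

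Deviations of same-numbered replicates correlated at −0.46 to 0.27, so the numbers were not taken as pairs. The replicate block left 0 of the genes DE on day 7 in ESCs (*Hand1*, adjusted p = 0.104) and 3 in TSCs between the days (*Ascl2* 0.106 and *Gcm1* 0.137), and took the 5 stem cell regulators lower on day 7 than in normoxia in TSCs to 2. It changed no other call of a gene followed.

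The direction of 17 of 54 values for single genes reversed in at least 1 fit, none of them DE with all libraries in. Leaving out 1 library gave, in ESCs, −0.73 to 0.01 (day 2) and −0.43 to 0.30 (day 7 against day 2) for *Gcm1*, −0.07 to 0.01, −0.34 to 0.24 (day 7) and −0.31 to 0.27 for *Plac8* and −0.77 to 0.20 for *Syna* (day 7 against day 2). In TSCs it gave −0.04 to 0.67 for *Hand1* (day 7), −0.32 to 0.87 (day 7) and −0.70 to 0.02 (day 7 against day 2) for *Ovol2*, −3.68 to 0.80, −3.98 to 0.50 and −0.90 to 0.31 for *Syna*, −0.53 to 0.37 for *Prl3d1* (day 2), and −1.06 to 0.12 (day 7) and −0.34 to 1.04 (day 7 against day 2) for *Prl2c2*. In XEN cells it gave −0.12 to 0.02 for *Ovol2* (day 2) and −0.01 to 0.43 for *Syna* (day 7 against day 2). On day 7 against normoxia in TSCs *Ovol2* was −0.14 with the fibroblast covariate, and without the 2 libraries *Hand1* was −0.04 and *Ovol2* −0.32; *Syna* was 0.02 against day 2.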
